A study of Mus musculus with 6 samples.

Results

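The Myc network is a set of transcription factors that bind DNA as pairs with the shared partner Max, and its 10 genes named here (Myc, Mycn, Mycl1, Max, Mxi1, Mxd1, Mxd3, Mxd4, Mnt and Mga) were followed across 6 RNA-seq libraries of mouse brain tumours. The members were chosen by symbol, and all 10 were found among the 34591 gene rows of the count tables and passed the filter on low counts. The tumours come from a mouse model of WNT medulloblastoma, a hindbrain tumour with active WNT signalling. The labels put 3 libraries in a control group and 3 in a group called sh2-Ift88, where a short hairpin RNA targets Ift88, a transport protein that builds the primary cilium. One field of the labels names the Ift88 knockdown for every library, controls included, and the groups were taken from the sample descriptions. The driver of the tumour, the strain, the age and the vector of the hairpin are not stated in the labels. Nothing in the labels ties the libraries to separate animals, so p-values measure the spread between these libraries, which may in part be technical. In bulk tumour RNA, fewer cells of a type and less RNA per cell cannot be told apart.

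By GENCODE M21 (GRCm38), the genes lie on chromosomes 15 (Myc), 12 (Mycn and Max), 4 (Mycl1), 19 (Mxi1), 6 (Mxd1), 13 (Mxd3), 5 (Mxd4), 11 (Mnt) and 2 (Mga), and the count tables name them by symbol. Myc, Mycn and Mycl1 (L-Myc, now named Mycl) are the activating members: each pairs with Max on the E-box, whose letters are CACGTG, and recruits coactivators. Mxd1, Mxi1, Mxd3, Mxd4 and Mnt pair with the same Max and recruit Sin3 corepressors, and Mga pairs with Max in a Polycomb-related repressor complex, so the balance between these groups sets the output of shared target genes. MYC is characteristically expressed in WNT medulloblastoma, MYCN is the paralogue of granule neuron progenitors and of Hedgehog-driven tumours, and MYCL is amplified in some lung cancers.

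Of the 10 members, 9 had an entry in the RefSeq promoter table (GRCm38.p6, 250 bases before to 50 bases after the start), with 11 promoters in all since Mxi1 has 3, and Myc had none. Motifs were searched on both strands. The network's own motif CACGTG lay in 3 of the 11 promoters (those of Max, Mnt and Mxd4), against 7.15% of 32851 mouse promoters of the same length. The 30 bases around it, 5′ to 3′ on the gene's strand with the motif in capitals, are shown because these members carry the motif that the network binds. They lie at chr12:76962234-76962263 on the minus strand for Max, at chr11:74830789-74830818 on the plus strand for Mnt and at chr5:34187912-34187941 on the minus strand for Mxd4.
Max: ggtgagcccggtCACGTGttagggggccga
Mnt: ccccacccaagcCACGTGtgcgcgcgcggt
Mxd4: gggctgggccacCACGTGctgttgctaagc
The 250 bases before the start of Mycn and Mycl1 are shown because these genes were low in the same library, as described further on. They lie at chr12:12941837-12942086 on the minus strand and at chr4:122995681-122995930 on the plus strand. Capitals mark TTTGGCGC or TTTCGCGC on either strand, motifs of the E2F cell cycle factors. Mycn has 3 matches, of which the first and the second overlap and the third stands apart.
Mycn: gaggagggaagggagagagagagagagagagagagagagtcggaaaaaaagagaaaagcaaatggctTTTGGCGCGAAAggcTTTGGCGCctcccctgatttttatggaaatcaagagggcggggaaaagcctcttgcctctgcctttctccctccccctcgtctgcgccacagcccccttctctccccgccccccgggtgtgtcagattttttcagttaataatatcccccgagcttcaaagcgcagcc
Mycl1: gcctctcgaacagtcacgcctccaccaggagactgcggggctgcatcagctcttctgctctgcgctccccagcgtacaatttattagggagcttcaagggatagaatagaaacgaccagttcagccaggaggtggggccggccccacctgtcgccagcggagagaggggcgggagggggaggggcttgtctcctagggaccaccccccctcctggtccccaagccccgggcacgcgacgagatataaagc
Mycn was the 1 member with an E2F motif, which 0.813% of all promoters held. The motif CTTTGAT of the TCF/LEF factors that act in WNT signalling lay in 0 of the 11 promoters and in 3.73% of all. A match describes letters in this window and is not a site.

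Gene counts summed to between 26802618 and 33772559 per library, and levels are counts-per-million values (CPM) with TMM-scaled library sizes. The TMM factor, which corrects for composition, was 0.598 in sh2-Ift88 3 and between 1.05 and 1.24 in the other 5 libraries. The place of sh2-Ift88 3 in the order of libraries rests in part on this factor, and the orders given below are with it. Reads of normally silent olfactory receptor genes were found for 387 to 564 such genes in control 2, sh2-Ift88 2 and sh2-Ift88 3 and for 24 to 38 in the other libraries. The WNT markers Axin2 and Wif1 were at 320 CPM or more and 1346 CPM or more in every library, while Dkk4 was at 0.687 CPM or less. Sp5, of the same list, was at 2.69 CPM in control 3 and between 38.7 and 142 CPM elsewhere. Of the 11 WNT markers tested, 4 (36.4%) were lowest in control 3, against 24.7% of all genes tested. Another 4 (36.4%) were lowest in sh2-Ift88 1, against 20%. Highest in control 3 were 2 (18.2%), against 22.9%, and highest in control 1 were 6 (54.5%), against 17.7%. Mature neuron markers, summed over 14 genes, ran from 19.4 to 614 CPM in controls and from 35.5 to 279.6 CPM in sh2-Ift88, with Gabra6 at 0 in control 1 and Syn1 at 0 in sh2-Ift88 3. Ift88, the targeted gene, was at 13.8, 19.7 and 13.7 CPM among controls and at 14.7, 16.0 and 14.4 CPM in sh2-Ift88, so the transcript gave no check of the labels, and directions are those of the libraries labelled sh2-Ift88.

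No member passed the threshold between the groups. With edgeR's quasi-likelihood test on 16768 genes, 0 genes (0% of those tested) and 0 of 10 members reached an adjusted p of 0.05, and every member had an adjusted p of 0.9995. An unadjusted p under 0.05 was reached by 541 genes (3.23%) and 0 members. With TMM scaling, the groups overlapped for all 10 members. They did not overlap for 8.39% of all genes tested (4.7% higher and 3.69% lower in sh2-Ift88). Of the members, 5 had positive and 5 negative log2 fold changes, with a median of 0.0012 against -0.012 over all genes. DESeq2 called 0 members and 0.369% of the genes to which it gave an adjusted p, and edgeR without a filter called 0 members and 0.0194% of genes. These tests do not show that the groups were alike: the 95% intervals were widest for Mycn, from 16.6% to 572% of the control level.

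**Figure D1:**
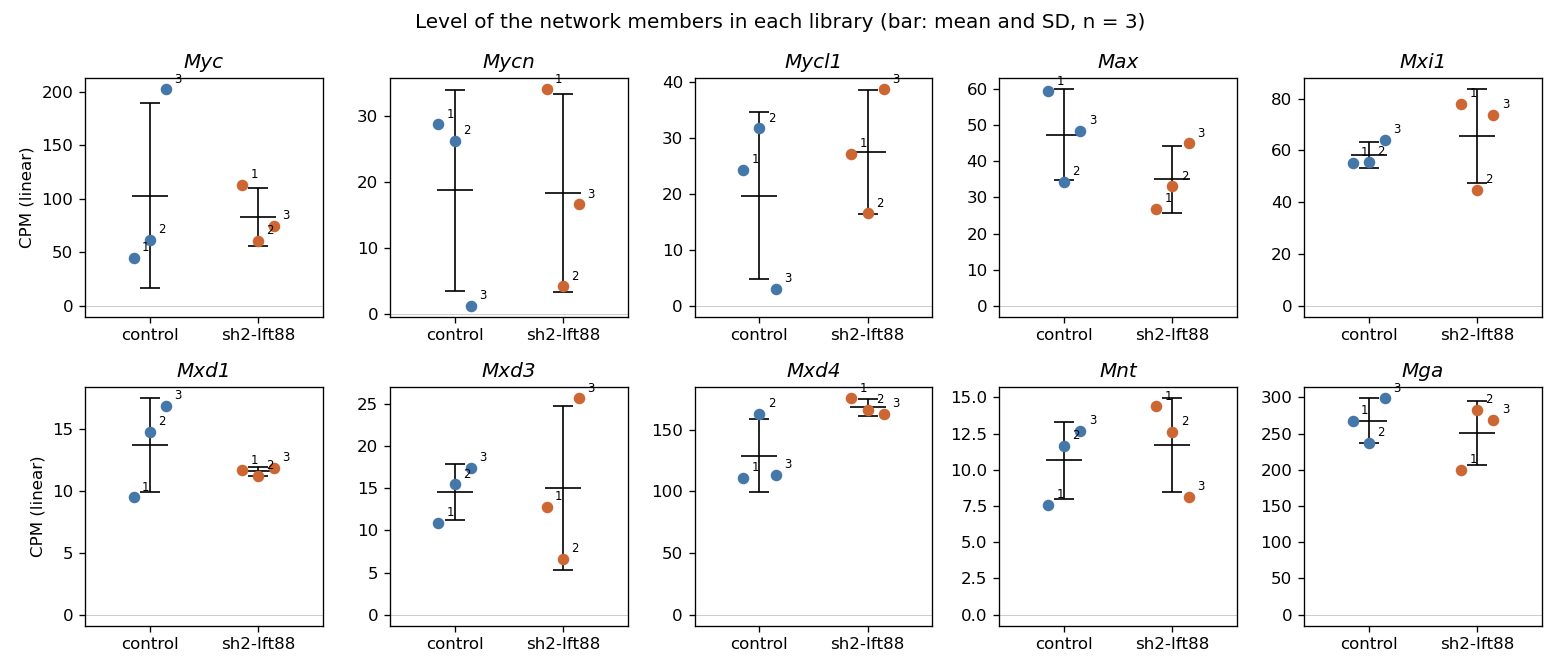
CPM (vertical axes, linear) of each network member in the 3 control and 3 sh2-Ift88 libraries, with numbered points for the libraries and bars for the mean and SD. Control 3 is the highest library for Myc, at 203 CPM, and the lowest for Mycn and Mycl1, at 1.21 and 2.99 CPM.

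Among the activating members, the differences lay between single libraries. Myc was at 44.8, 61.6 and 203 CPM in control 1, 2 and 3 and at 113, 60.5 and 74.8 CPM in sh2-Ift88 1, 2 and 3. With TMM scaling, control 3 was the highest library and control 1 the lowest, so the sh2-Ift88 libraries all lay inside the range of the controls. By library totals alone, sh2-Ift88 3 was slightly below control 1, with 1198 counts of 26802618 against 1478 of 30965187. The means were 103 ± 86.7 CPM in controls and 82.7 ± 27.1 CPM in sh2-Ift88 (SD, n = 3 each), a log2 fold change of -0.32 (standard error 0.58). Its sign turned to 0.63 without control 3 and to 0.00089 with a term for the libraries with reads of silent genes.

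Mycn varied most. It was at 28.8, 26.3 and 1.21 CPM among controls and at 34.1, 4.13 and 16.6 CPM in sh2-Ift88, a 28.2-fold range. Control 3 stood lowest and sh2-Ift88 2 next, so each group held a low library. The low values rest on few reads, 49 in control 3 (exact binomial 95% interval 0.896 to 1.601 CPM, counting error only) and 123 in sh2-Ift88 2 (3.43 to 4.93 CPM). The group means were 18.8 ± 15.3 and 18.3 ± 15.1 CPM, and the log2 fold change was -0.036 (standard error 1.08). It ran from -0.86 without sh2-Ift88 1 to 0.43 without sh2-Ift88 2.

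Mycl1 was at 24.3, 31.7 and 2.99 CPM among controls and at 27.2, 16.5 and 38.7 CPM in sh2-Ift88. It shared its lowest library, control 3, with Mycn, while the other 5 libraries lay within 16.5 and 38.7 CPM. The means were 19.7 ± 14.9 and 27.5 ± 11.1 CPM, a log2 fold change of 0.48 (standard error 0.76), which was -0.034 without control 3.

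To set the paralogues side by side, levels were divided by gene length, the union of exons of GENCODE M21 (a later build than mm9, so lengths are approximate). Of the summed level per kilobase of Myc, Mycn and Mycl1, Myc held 52.7%, 58.9% and 98.5% in control 1, 2 and 3 and 70.8%, 80.7% and 65.3% in sh2-Ift88 1, 2 and 3. Myc was thus the leading paralogue in all 6 libraries. Mycn held 28.0%, 20.7% and 0.486% in the controls and 17.7%, 4.54% and 11.96% in sh2-Ift88. Mycl1 held 19.3%, 20.4% and 0.979% in the controls and 11.5%, 14.8% and 22.7% in sh2-Ift88. These shares are ratios within a library and do not depend on the scaling between libraries. With the longest transcript as the length, the Myc share was 51.9% in control 1 and 98.5% in control 3.

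**Figure D2:**
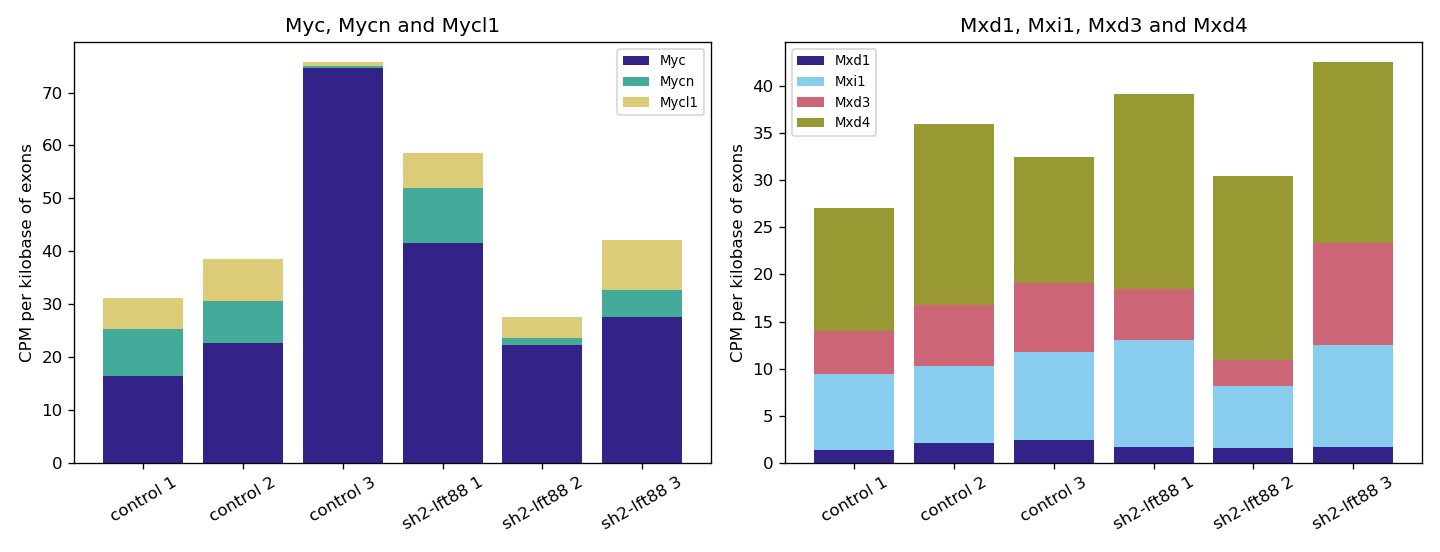
Stacked level per kilobase of exons (vertical axes, CPM per kilobase, linear) of the 3 activating paralogues (left) and of the 4 Mxd repressors (right) in each of the 6 libraries. Myc fills 98.5% of the left bar in control 3 and 52.7% in control 1, and Mxd4 is the largest part of the right bar in every library.

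Max, the obligate partner of the network, was at 59.5, 34.3 and 48.4 CPM among controls and at 26.9, 33.1 and 45.04 CPM in sh2-Ift88. With TMM scaling, control 1 was the highest and sh2-Ift88 1 the lowest library, and sh2-Ift88 3 lay above control 2. By library totals alone, sh2-Ift88 3, with 721 counts of 26802618, lay below control 2, with 1054 of 27876540, and the groups did not overlap. The means were 47.4 ± 12.6 and 35.03 ± 9.20 CPM, a log2 fold change of -0.44 (standard error 0.30), below 0 under each of 14 alternative settings and past the threshold in 0 of them. Per kilobase, Max stood at 0.529, 0.247 and 0.178 of the summed activating paralogues in the controls and at 0.128, 0.334 and 0.297 in sh2-Ift88. The ratio was lowest in sh2-Ift88 1 and control 3, the libraries with the most Myc. As Myc makes up most of the divisor, a low ratio in these libraries follows largely from the way it is built.

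Of the Max partners that repress, Mxd4 had the highest mean level per kilobase. Mxd4, a member of the Mxd family, was at 111, 163 and 113 CPM among controls and at 175, 166 and 163 CPM in sh2-Ift88. With TMM scaling, control 1 and 3 lay below every sh2-Ift88 library, and control 2, at 162.8 CPM, was just above the lowest of them, at 162.5 CPM. That lowest library, sh2-Ift88 3, has the TMM factor of 0.598. By library totals alone it was the lowest of all, with 2602 counts of 26802618, against 3658 of 30965187 in control 1. The means were 129 ± 29.4 and 168 ± 6.70 CPM, a log2 fold change of 0.38 (standard error 0.24) and an unadjusted p of 0.159 in edgeR's quasi-likelihood test (adjusted p 0.9995). It was positive in each of 14 alternative settings, from 0.078 to 0.58, and passed in 0 of them.

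Mxi1, the repressor also called Mad2, was at 55.1, 55.7 and 64.0 CPM among controls and at 78.0, 44.8 and 73.8 CPM in sh2-Ift88. The highest and the lowest library were both sh2-Ift88, and the log2 fold change was 0.17 (standard error 0.27). Mxd1, the Mxd family member linked to terminal differentiation, was at 9.48, 14.7 and 16.8 CPM among controls and at 11.7, 11.2 and 11.9 CPM in sh2-Ift88. With TMM scaling, its sh2-Ift88 libraries all lay between control 1 and control 2. By library totals alone, sh2-Ift88 3, with 190 counts of 26802618, lay below control 1, with 313 of 30965187. The log2 fold change of Mxd1 was -0.24 (standard error 0.31).

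Mxd3, the Mxd member of dividing progenitors, was at 10.9, 15.4 and 17.4 CPM among controls and at 12.8, 6.62 and 25.7 CPM in sh2-Ift88. With TMM scaling, the sh2-Ift88 group held the lowest and the highest library. By library totals alone the highest was control 3, with 705 counts of 32709246, against 411 of 26802618 in sh2-Ift88 3. The means were 14.6 ± 3.33 and 15.03 ± 9.72 CPM, a log2 fold change of 0.038 (standard error 0.50), which was -0.62 without sh2-Ift88 3 and 0.39 without sh2-Ift88 2. Exons of Mxd3 overlap those of Prelid1 on the opposite strand in GENCODE M21, and since the strand setting of the counting is not stated, its counts are uncertain. The same holds for Mxi1, whose exons overlap those of Gm10197 on the opposite strand, and for Mxd4, whose exons overlap an antisense gene that has no row of its own.

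Mnt, the broadly expressed antagonist of Myc, was at 7.60, 11.6 and 12.7 CPM among controls and at 14.4, 12.6 and 8.12 CPM in sh2-Ift88, with a log2 fold change of 0.14 (standard error 0.36). Its lowest libraries were control 1 and sh2-Ift88 3, 1 in each group. Mga was the steadiest member with TMM scaling, at 268, 237 and 299 CPM among controls and at 199.7, 283 and 269 CPM in sh2-Ift88. Its highest library stood 1.496 times above its lowest, and the log2 fold change was -0.097 (standard error 0.26).

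**Figure D3:**
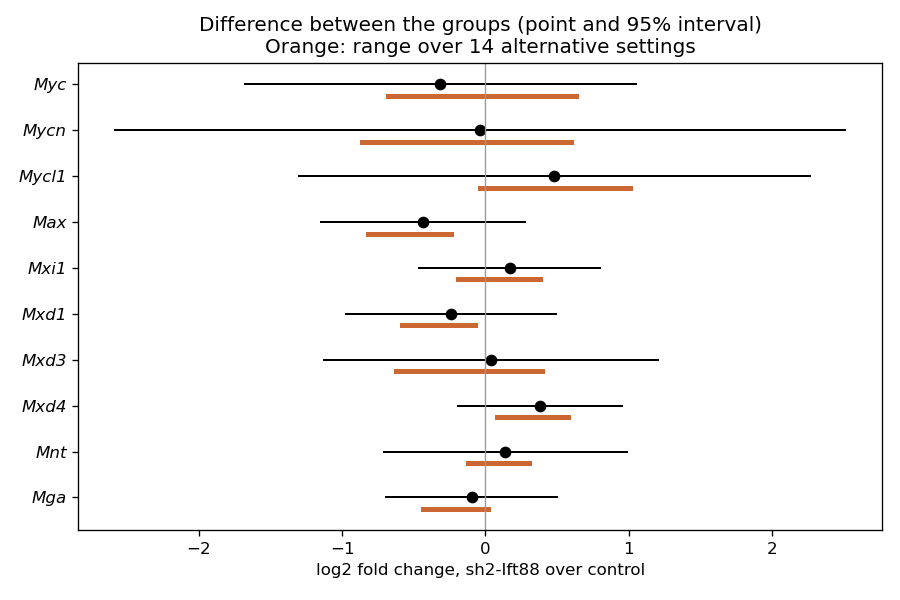
Log2 fold change of sh2-Ift88 over control for each member (points), with its 95% interval (black lines) and the range over 14 alternative settings (orange). All 10 intervals include 0, and the widest is that of Mycn.

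Per kilobase of exons and over all 6 libraries, the order of levels was Myc at 34.2 ± 21.5, Mxd4 at 17.5 ± 3.38, Mga at 16.9 ± 2.32, Max at 11.5 ± 3.33, Mxi1 at 9.07 ± 1.84, Mxd3 at 6.25 ± 2.75, Mycl1 at 5.84 ± 3.10, Mycn at 5.62 ± 4.12, Mnt at 2.42 ± 0.587 and Mxd1 at 1.79 ± 0.377 CPM per kilobase (SD, n = 6). Each member's range over libraries overlapped that of the next in this order. With the longest transcript, Myc and Mxd4 still led, while Max passed Mga, Mycn passed Mycl1 and Mxd1 passed Mnt. Within the 4 Mxd genes, Mxd4 held 41.1% to 64.1% of the sum per kilobase, and Mxd3 ran from 9.17% in sh2-Ift88 2 to 25.5% in sh2-Ift88 3. The sum of the Mxd genes over that of the activating paralogues came to 0.867, 0.933 and 0.429 among controls and 0.668, 1.10 and 1.01 in sh2-Ift88. Control 3 and sh2-Ift88 1 were lowest in this ratio, and the groups overlapped. Both have the most Myc, which makes up most of the divisor, so their low ratio follows largely from the way it is built.

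The high Myc level of control 3 was shared by its neighbours on chromosome 15. By a likeness rule (smallest root mean square difference of centred log2 CPM over 6 libraries among 9289 genes with a mean of at least 10 CPM), the genes most like Myc were Nsmce2 (0.171), Pus7 (0.179) and Fam185a (0.186), and Nsmce2, a SUMO ligase subunit, lies close to Myc. Among the 25 genes tested that precede Myc in the RefSeq order (GRCm38.p6, used for order alone), 18 were highest in control 3, where 23.2% of all 15975 placed genes were. Their median in control 3 was 1.16 above the 6-library median (log2), a 2.24-fold level. Among the 25 genes after Myc, 5 were highest in control 3 and the median was -0.18.

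The long noncoding RNA gene Pvt1, the first gene after Myc, was at 14.99, 14.3 and 187.5 CPM among controls and at 34.3, 19.2 and 14.4 CPM in sh2-Ift88. Before Myc, Sqle, an enzyme of sterol synthesis, was at 74.3, 82.6 and 437 CPM among controls and at 239, 111 and 163 CPM in sh2-Ift88. Ndufb9, a subunit of respiratory complex I, was at 117, 101 and 588 CPM among controls and at 184, 143 and 137 CPM in sh2-Ift88. All of these were highest in control 3 and next highest in sh2-Ift88 1, as Myc was.

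Of the 11 genes after Myc with a mean of at least 10 CPM, Pvt1 was the 1 that was highest in control 3. Fam49b, the first gene after it with at least 10 CPM, stood at 108 CPM in control 3 and at 185 CPM in sh2-Ift88 1, and Ndrg1 further on was at 61.2 CPM in control 3, its lowest library. Ndrg1 is also on the list, described further on, of genes that Myc is known to repress. Before Myc, Fam84b, at 84.4 CPM in control 3, and Trib1, at 36.5 CPM, were exceptions near it, since both were highest in sh2-Ift88 1. Over all 642 placed genes of chromosome 15 the median in control 3 was -0.15, and in sh2-Ift88 1 it was 0.31 for the chromosome and 0.34 for the 50 neighbours. These genes were chosen after their values were seen. DNA was not measured here, and the part of gene dose in the Myc level was not tested.

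**Figure D4:**
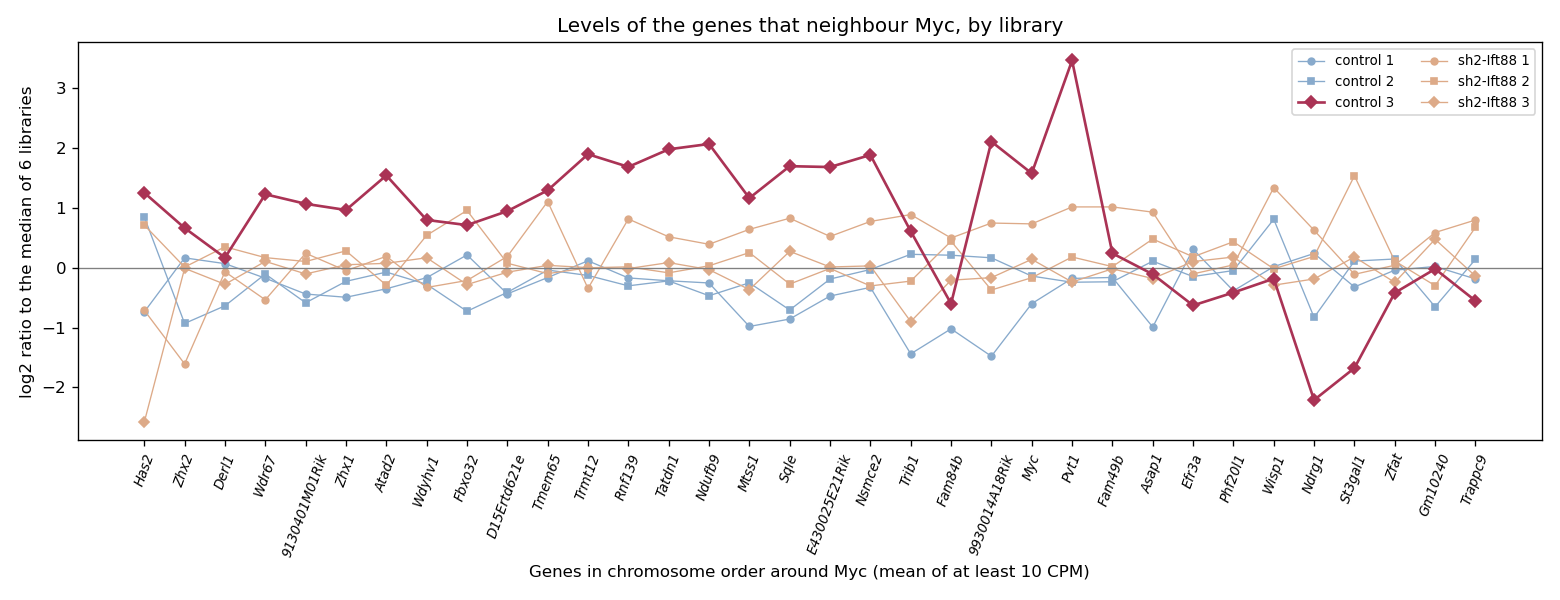
Log2 ratio of each library to the 6-library median (vertical axis) for Myc and its neighbours with a mean of at least 10 CPM, in chromosome order (horizontal axis, not to scale). The line of control 3 stays above the others over most genes before Myc, peaks at Pvt1 and is not the highest from Fam49b on.

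The neighbours of Mycn and Mycl1 were described in the same way, beside a median of 0.64 in control 3 over the 50 neighbours of Myc, 23 of which were highest there. Around Mycn on chromosome 12, the median of 50 neighbours in control 3 was -0.16, where Mycn itself was -4.10 from its 6-library median (log2). Around Mycl1 on chromosome 4, it was -0.52, with -0.43 over the 1079 placed genes of the chromosome, where Mycl1 itself was at -3.10. Of these 50 neighbours of Mycl1, 28 were lowest in control 3, as were 24.7% of all genes tested. The genes most like Mycn were Grik1, Igfn1 and Pcsk5, and their root mean square differences, 0.583 to 0.759, were larger than those for Myc. Grik1, a kainate receptor subunit, was at 28.8, 14.8 and 1.83 CPM among controls and at 27.2, 5.98 and 9.12 CPM in sh2-Ift88, so its lowest libraries were those of Mycn.

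Genes that Myc is known to induce, a list of 58 genes of nucleolus, nucleotide and polyamine synthesis and growth, were for the most part highest in the library with the most Myc. Of the 58, 39 (67.2%) were highest in control 3 and 13 (22.4%) in sh2-Ift88 1, against 22.9% and 17.8% of all genes tested, and 29 (50%) were lowest in sh2-Ift88 2, against 12.4%. Averaged over the list, levels were 5.56, 5.45 and 6.25 log2 CPM among controls and 5.87, 5.30 and 5.58 in sh2-Ift88. The order of the first and second library was that of Myc, but the low end was not. With TMM scaling, control 1 had the least Myc, yet 6 of the 58 (10.3%) were lowest there, against 17.7% of all genes tested. Npm1, a nucleolar chaperone, was at 901, 687 and 1794 CPM among controls and at 1258, 659.8 and 995 CPM in sh2-Ift88. Ncl, the nucleolar protein nucleolin, was at 513, 497 and 949.97 CPM among controls and at 727, 357 and 527 CPM in sh2-Ift88.

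Between the groups, 0 of the 58 induced genes passed in either direction, with 11 positive and 47 negative log2 fold changes and a median of -0.22 against -0.012 over all genes. The median turned to 0.12 without control 3. The members of smallest p were Hk2, the first enzyme of glycolysis (46.7 ± 21.0 and 20.6 ± 8.96 CPM), and Ldha, lactate dehydrogenase (640.1 ± 302 and 362 ± 48.7 CPM), with unadjusted p of 0.0390 and 0.0734 in edgeR's quasi-likelihood test.

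Of 12 genes that Myc is known to repress, 7 (58.3%) were lowest in control 3, against 24.7% of all genes, and 0 passed between the groups (median 0.087, which ran from -0.27 without sh2-Ift88 1 to 0.42 without control 1). Thbs1, an inhibitor of vessel growth, was at 553, 166 and 24.9 CPM among controls and at 294, 195 and 218 CPM in sh2-Ift88. Itga6, a laminin receptor subunit, was at 824, 466 and 50.8 CPM among controls and at 362, 381 and 256 CPM in sh2-Ift88. Ndrg1, which is also a neighbour of Myc, was at 334, 159 and 61.2 CPM among controls and at 438, 323 and 249 CPM in sh2-Ift88. Of the 12 genes, 3 (25%) were highest in control 3, against 22.9% of all genes tested. Cebpa, a differentiation factor of the same list, went the other way, at 4.30, 8.72 and 100.4 CPM among controls and 9.62, 4.07 and 3.44 CPM in sh2-Ift88. Cdkn1a, the cell cycle inhibitor p21, was at 7.72, 7.67 and 13.9 CPM among controls and at 3.68, 6.12 and 2.37 CPM in sh2-Ift88. Its groups did not overlap, and it did not pass (unadjusted p = 0.0362, edgeR). Of the 12, 2 were lower in sh2-Ift88 without overlap, as were 3.69% of all genes tested. Control 3 also had the highest summed level of mature neuron markers (614 CPM, against 19.4 to 279.6 CPM elsewhere). The same held for oligodendrocyte lineage markers (702 CPM, against 286 to 672 CPM) and proliferation markers (1796 CPM, against 499.9 to 1530.3 CPM). Most of the oligodendrocyte sum was Pdgfra, at 482 CPM in control 3 and 595 CPM in sh2-Ift88 2. Of the 9 oligodendrocyte markers tested, 8 were highest in control 3, against 22.9% of all genes tested. The part of these markers in the lists of Myc targets was not tested.

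**Figure D5:**
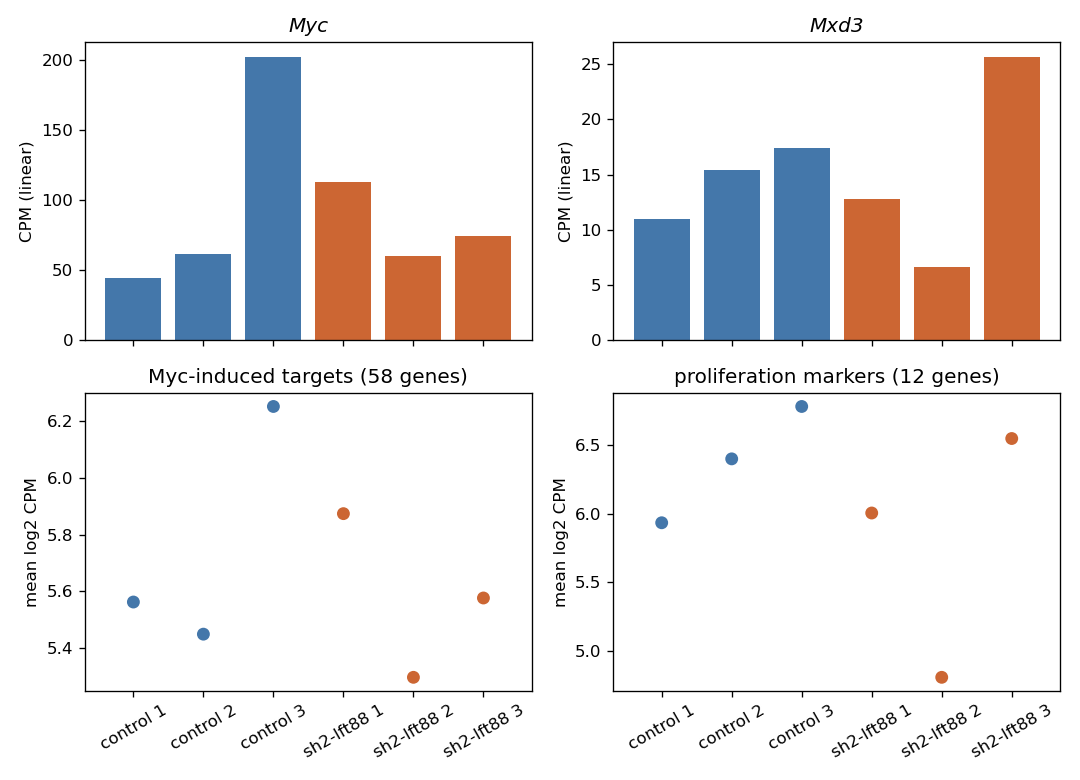
Top: CPM (linear) of Myc and of Mxd3 in each library, controls in blue and sh2-Ift88 in orange. Bottom: mean log2 CPM of the 58 Myc-induced genes and of 12 proliferation markers in the same libraries. Control 3 is highest for Myc and for the induced list, and sh2-Ift88 2 is lowest for Mxd3 and for the proliferation markers.

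The genes most like Mxd3 were Kif20a, a mitotic kinesin (root mean square difference 0.141), the replication-dependent histone Hist1h2ai (0.161) and the nuclear envelope protein Tmpo (0.164). Hist1h2ai is 1 of a family of near-identical histone genes, so its counts are uncertain. Kif20a was at 40.1, 65.6 and 76.0 CPM among controls and at 43.0, 26.7 and 90.01 CPM in sh2-Ift88, with its highest and lowest libraries those of Mxd3. The proliferation markers averaged 5.94, 6.40 and 6.78 log2 CPM among controls and 6.01, 4.81 and 6.55 in sh2-Ift88, and all 12 were lowest in sh2-Ift88 2, as Mxd3 was. With TMM scaling, 4 of the 12 shared the highest library of Mxd3, sh2-Ift88 3, while 7 were highest in control 3 and 1 in control 2. The genes most like Mxd4 were Pacs1 (0.046), a sorting protein, Gpx4 (0.062), which removes lipid peroxides, and Podxl2 (0.079). As these genes were picked from 9289 by their likeness over 6 libraries, the likeness is a description.

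The parallel MLX arm, in which Mlx pairs with the glucose sensors Mlxip (MondoA) and Mlxipl (ChREBP), had 0 of 5 tested genes past the threshold. Its target Txnip, which limits glucose uptake, was at 91.6, 70.6 and 79.7 CPM among controls and at 243, 112 and 183 CPM in sh2-Ift88. Every sh2-Ift88 library lay above every control, as in 4.7% of all genes tested, and the log2 fold change was 1.15 (standard error 0.32) (unadjusted p = 0.00805, adjusted p = 0.9995, edgeR). Mlx was at 38.0, 24.97 and 23.6 CPM among controls and 16.8, 26.7 and 26.5 CPM in sh2-Ift88. Mlxip was at 14.99, 23.7 and 37.7 CPM and at 19.9, 33.7 and 18.7 CPM. Mlxipl was at or below 1.15 CPM in every library but sh2-Ift88 1, where it was at 4.75 CPM, which was also the library with the most Txnip.

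Coactivators, corepressors and regulators of Myc turnover had 0 members past the threshold. Of 18 coactivators and chromatin partners, 9 log2 fold changes were positive and 9 negative (median 0.016). Trrap, the scaffold of histone acetyltransferase complexes, averaged 155 ± 44.5 CPM in controls and 178 ± 28.9 CPM in sh2-Ift88. Wdr5, which helps Myc bind chromatin, was at 71.3 ± 5.07 and 55.6 ± 7.90 CPM (unadjusted p = 0.139, edgeR). It was the 1 of the 18 that was lower in every sh2-Ift88 library, as were 3.69% of all genes tested. The chromatin remodeller subunit Bptf was at 157 ± 15.1 and 131 ± 24.7 CPM, the elongation factor subunit Ccnt1 at 109 ± 20.4 and 123 ± 8.99 CPM, and the acetyltransferase Ep300 at 59.99 ± 20.6 and 89.5 ± 30.2 CPM. Of 16 corepressors and Max-associated repressors, 9 were positive and 7 negative (median 0.040). The histone deacetylase Hdac2 was at 93.5, 86.3 and 85.6 CPM among controls and at 135, 87.6 and 191 CPM in sh2-Ift88, and E2f6, a partner of Mga, at 8.18, 10.7 and 9.39 CPM and at 4.47, 4.80 and 8.06 CPM. The corepressor Ncor1 was at 199.8 ± 26.1 and 184 ± 34.1 CPM and the methyltransferase Ehmt2 at 135 ± 13.8 and 118 ± 36.8 CPM. E2f6 was lower in every sh2-Ift88 library, as were 3.69% of all genes tested.

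Of 22 genes of Myc stability and turnover, 9 were positive and 13 negative (median -0.070). The ubiquitin ligase Huwe1 averaged 304 ± 35.2 CPM in controls and 319 ± 121 CPM in sh2-Ift88, the phosphatase inhibitor Set at 351 ± 48.5 and 266 ± 59.6 CPM, and the deubiquitinase Usp37 at 122 ± 19.1 and 116 ± 38.8 CPM. Pim3, a kinase of the family that stabilises Myc, was at 34.1, 37.5 and 46.3 CPM among controls and at 195, 67.2 and 42.8 CPM in sh2-Ift88, so sh2-Ift88 1 stood apart and the groups overlapped. Skp2, a ubiquitin ligase subunit that acts on Myc, was at 39.0, 51.7 and 82.2 CPM among controls and at 41.5, 31.0 and 36.6 CPM in sh2-Ift88, with its highest level in control 3.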

How the data were processed

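RNA was sequenced from 6 mouse tumour libraries prepared with a stranded total RNA kit, per the labels' protocols. The authors deposited raw counts per gene with no normalization, 1 table per library, and the submitters' processing notes name BWA and mm9. The counting program, annotation, strand setting and versions were not given in the sources at hand. The 5 closing tallies were left out; reads without a feature took 18.8% to 39.5% and ambiguous reads 0.876% to 4.37% of all tallied reads. Counts were tested in R 4.3.3 with edgeR 4.0.16 (filterByExpr, TMM, glmQLFit with robust=TRUE, two-sided glmQLFTest, Benjamini-Hochberg at 0.05 over 16768 genes, 3 libraries against 3), checked on simulated data. Alternatives used DESeq2 1.42.0, limma-voom (limma 3.58.1), other scalings and filters, each library left out in turn, and a term for libraries with more than 100 olfactory receptor genes detected. For order on chromosomes, 16002 of 16768 tested genes matched RefSeq symbols or synonyms, and 15975 were placed.

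The members and gene lists were chosen with earlier results of these data known. Named genes are Ift88, all members, and from each list the 3 of highest mean CPM and the 2 of smallest p; for Myc, Mycn, Mxd3 and Mxd4 the 3 genes most like each were taken. Genes neighbouring Myc were added after their values were seen.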

Additional observations from a re-analysis of the deposited data

How the results depend on the processing

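The members' count past the threshold stayed at 0 under every alternative run, and of 140 member values under alternatives 121 kept the direction of the reported fit. Genes past the threshold numbered 58 with DESeq2 (45 higher, 13 lower) and 6 without a filter, against 0. Library totals alone moved the median of all genes to -0.33, and there Mxi1 was -0.19, Mxd3 -0.48 and Mnt -0.12, so that relative to that median Mxi1 and Mnt stayed higher. With limma-voom Mycn was 0.60 and Mxd3 -0.26; Mxd3 was -0.0026 without a filter. With the term for reads of silent genes Myc was 0.00089 and Mxd3 -0.044. Leaving out each library in turn gave log2 fold changes from -0.68 to 0.63 for Myc, -0.86 to 0.43 for Mycn, -0.034 to 1.003 for Mycl1, -0.69 to -0.24 for Max, 0.0049 to 0.38 for Mxi1, -0.45 to -0.069 for Mxd1, 0.28 to 0.58 for Mxd4, -0.62 to 0.39 for Mxd3, -0.060 to 0.31 for Mnt, -0.19 to 0.021 for Mga and -0.16 to 0.13 for Ift88. With the longest transcript as length, levels per kilobase were 21.2 for Max, 12.3 for Mxi1, 2.71 for Mxd1 and 32.1 for Mxd4. Chosen after seeing the data, 10 neighbours on each side of Myc gave a median of 0.50 in control 3 and neighbours of at least 10 CPM gave 0.95, against 0.64. Over all alternatives, list medians ran from -0.24 to 0.14 for coactivators, -0.29 to 0.078 for corepressors and -0.41 to -0.027 for turnover genes, each lowest with library totals alone. The causes of these changes were not tested. No paired analysis was possible because the labels give no replicate numbers that link libraries across groups. The lowest values rest on few reads, such as the 49 of Mycn in control 3 (exact binomial 95% interval 0.896 to 1.601 CPM, counting error only).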

Other observations

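Some other members sat in chromosome stretches whose genes differed between libraries, given here as medians of the log2 ratio to the 6-library median over the 50 nearest genes tested. Around Mxd4 on chromosome 5 the median was -0.46 in control 1 and lay between -0.040 and 0.14 in the other libraries. Of the 50 neighbours, 26 were lowest in control 1, as were 17.7% of all genes tested, and Mxd4 itself was at -0.55 there. In control 3, where Mxd4 was at -0.52, the neighbours' median was 0.083. Around Mga on chromosome 2 the median was 0.33 in control 1, and 27 of 50 neighbours were highest there, as were 17.7% of all genes tested. Mga itself was at -0.0025 in control 1. Around Mxd1 on chromosome 6 the median was 0.23 in control 3, the library with the highest Mxd1, at 0.52. For whole chromosomes, the median was -0.43 in control 3 for chromosome 4, -0.47 in sh2-Ift88 3 for chromosome 14 and -0.37 in sh2-Ift88 3 for chromosome 16.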
